A study of Homo sapiens with 24 samples.

Results

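The 10 genes described here encode cytokine receptors and the JAK-STAT machinery that they engage: the receptor chains IL4R, IL21R, IL10RA and IFNGR1, the Janus kinases JAK1 and JAK2, the transcription factors STAT3, STAT5B and STAT6, and the inhibitor SOCS1. They are 10 of 19970 protein-coding genes in GENCODE version 44 (hg38, chromosomes 1 to 22 and X). A super-enhancer was linked to a gene when it overlapped the gene body extended by 50 kb on each side, and this rule gave 9 of the 2615 super-enhancers in the deposited table.

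The cells were OCI-Ly7, an established line from a human diffuse large B-cell lymphoma (GCB-DLBCL, the germinal center class). In CUT&RUN, nuclease tethered by an antibody cuts out the DNA around a histone mark for sequencing. The 24 samples formed 12 groups of 2, from 3 marks (H3K4me1, H3K27ac and H3K4me3) and 4 genotypes: WT clones without an edit, a homozygous CREBBP point-mutant knock-in (C_hom_KI), a homozygous KMT2D knockout (K_hom_KO) and both lesions together (CK_hom_KI_KO), all isogenic clones made by genome editing of this line. The table holds 1 H3K27ac signal column that pools the 2 WT libraries, so the values given here carry no replicate error and no test was made. The other 22 samples were not analysed here, and no comparison between genotypes was possible. The signal is a relative value whose unit the header did not give, and the number of reads behind it is unknown. It ran from 10621 to 170185 over the 2615 regions, all above a cutoff of 10617, so H3K27ac at a gene without a region may lie below that cutoff. As a check of the label, 5 of 7 B-cell markers and 5 of 5 germinal center B-cell markers had a super-enhancer within 50 kb, against 2 of 6 T-cell, 1 of 5 myeloid and 0 of 3 hepatocyte markers. The share over all protein-coding genes was 30.7%.

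A cytokine brings receptor chains together, the Janus kinases bound to them phosphorylate each other and the receptor tails, and STAT proteins dock there, are phosphorylated, pair and move to the nucleus, where they bind DNA. SOCS proteins are induced by this signal and restrain the kinases. In the germinal center, IL-4 and IL-21 from follicular helper T cells act on B cells through IL4R with STAT6 and through IL21R with STAT3, and H3K27ac marks the active enhancers and promoters of such cells.

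Of the 10 genes, 8 (80.0%) had a super-enhancer within 50 kb, against 30.7% of all protein-coding genes. The 10 genes were chosen with earlier results of these data known, so these shares describe them and test nothing. A region overlapped the body of 5 of 10 (background 17.3%) and covered the annotated 5' end of 3 of 10, IL4R, IFNGR1 and STAT3 (background 7.81%). IL10RA and STAT6 had none. IL21R and SOCS1 had 2 regions each and the other 6 linked genes had 1, while 76.1% of all 6140 linked genes had 1. The share differed between classes of gene length: 19.0% of genes in the length class of SOCS1, the shortest of 10 classes, had a region, against 28.5% to 37.6% in the classes of the other 9 genes.

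The strength of the linked regions spanned nearly the whole table (plot of signal against rank). In order of signal they stood at ranks 15 and 50 (SOCS1), 126 (IL4R and IL21R), 596 (IL21R), 887 (JAK1), 1061 (STAT5B), 1749 (IFNGR1), 2334 (STAT3) and 2604 (JAK2). Their signals had a median of 25868, against 19736 over all regions, and 6 of 9 lay above that median. Taken by the strongest region of each gene, the 8 linked genes had a median rank of 974 and all 6140 linked genes one of 1184. Among these 9 regions, those of ranks 15 and 50 had the highest signals. They were tied to SOCS1 by distance alone, and neither overlapped its body. The region shared by IL4R and IL21R came next, and those linked to STAT3 and JAK2 lay closest to the cutoff. The regions of the other linked kinase and STAT, JAK1 and STAT5B, stood at ranks 887 and 1061, so no order by pathway role was shown.

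**Figure D1:**
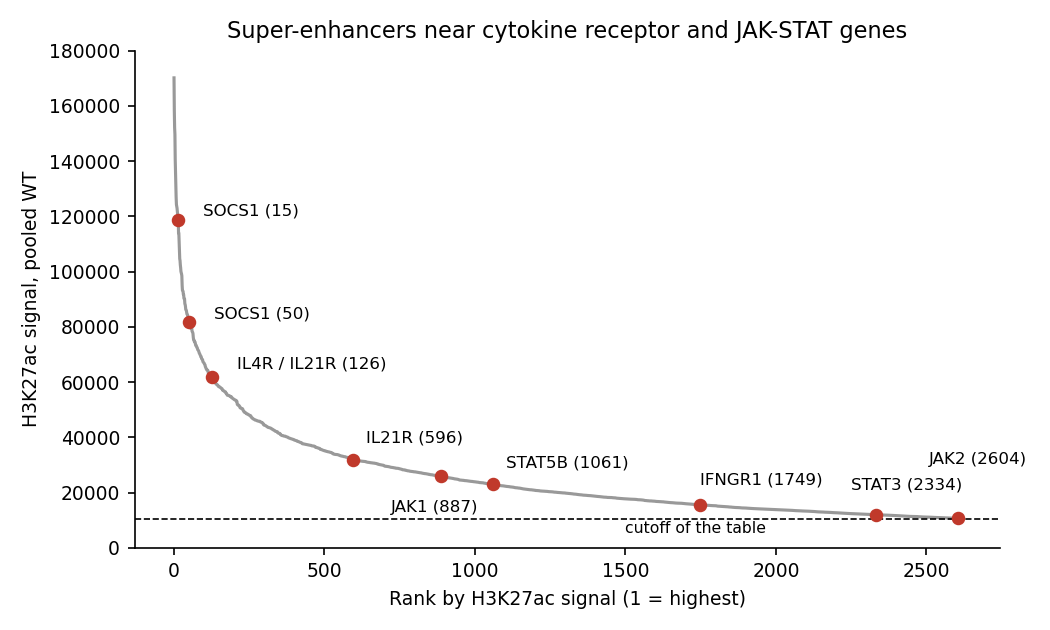
H3K27ac signal of the pooled WT libraries (y axis, no unit given) against rank (x axis) for all 2615 super-enhancers, drawn as a grey line. Red points are the 9 regions linked to the cytokine receptor and JAK-STAT genes, with their rank in brackets, from 118871 at SOCS1 down to 10669 at JAK2, next to the dashed cutoff of 10617.

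SOCS1, which binds and inhibits Janus kinases, is a gene of 1.79 kb on chromosome 16 (chr16:11254417-11256204, minus strand). It lies inside the annotated body of RMI2 and in a gap of 37.4 kb between its 2 linked regions and neither of them reached its body. The region of rank 15 (chr16:11283744-11349245) began 27.5 kb upstream of the 5' end and had a signal of 118871, 11.2 times the cutoff. The region of rank 50 (chr16:10949443-11246394) ended 8.02 kb beyond the 3' end and had a signal of 81691, 7.69 times the cutoff. Only 39 of the 6140 linked genes (0.635%) had a region of rank 15 or higher, SOCS1 among them.

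These flanking regions were built differently. The upstream region was 65.5 kb long with 11 constituent peaks, and its signal came to 1.81 per bp, 5.29 times the median of all regions (0.343) and rank 21 by density. The downstream region was 297 kb long, the 11th longest of the table, and held 97 constituents at 0.275 per bp, 0.802 times the median. Divided by the number of constituents, the region signals came to 10806 (rank 10 of 2615) and 842 (rank 2040). These quotients do not measure signal inside the peaks, because the signal is summed over the whole region. Constituents made up 6.73% and 13.2% of the 2 lengths. A further comparison was chosen after these values were seen: 364 regions had a length within 10% of that of the rank 15 region, with a median signal of 18027 and a highest signal, apart from that region itself, of 64674. The rank 15 signal was 6.59 times that median, and no other region of the table was both as long and as dense.

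Both SOCS1 regions lay mostly inside other genes. The upstream region was 97.9% intronic, within RMI2, which encodes a subunit of the RecQ-mediated genome instability complex, and the downstream region was 74.2% intronic and 21.6% outside protein-coding genes, with its genic part in CLEC16A. Within 50 kb of the upstream region lay 7 protein-coding genes, among them the sperm chromatin genes TNP2, PRM1, PRM2 and PRM3, and within 50 kb of the downstream region lay 9, including CIITA, the master regulator of MHC class II genes. The table links regions to no gene, so distance alone does not assign them to SOCS1. The surroundings were also rich: 11 regions lay within 1 Mb of the SOCS1 5' end, a number that 2.01% of all genes reached, and 4 of them were among the 262 with the highest signal, as for 0.120% of genes. The other regions of this neighbourhood included rank 148 over SNX29, rank 220 over ZC3H7A and rank 283 over LITAF.

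**Figure D2:**
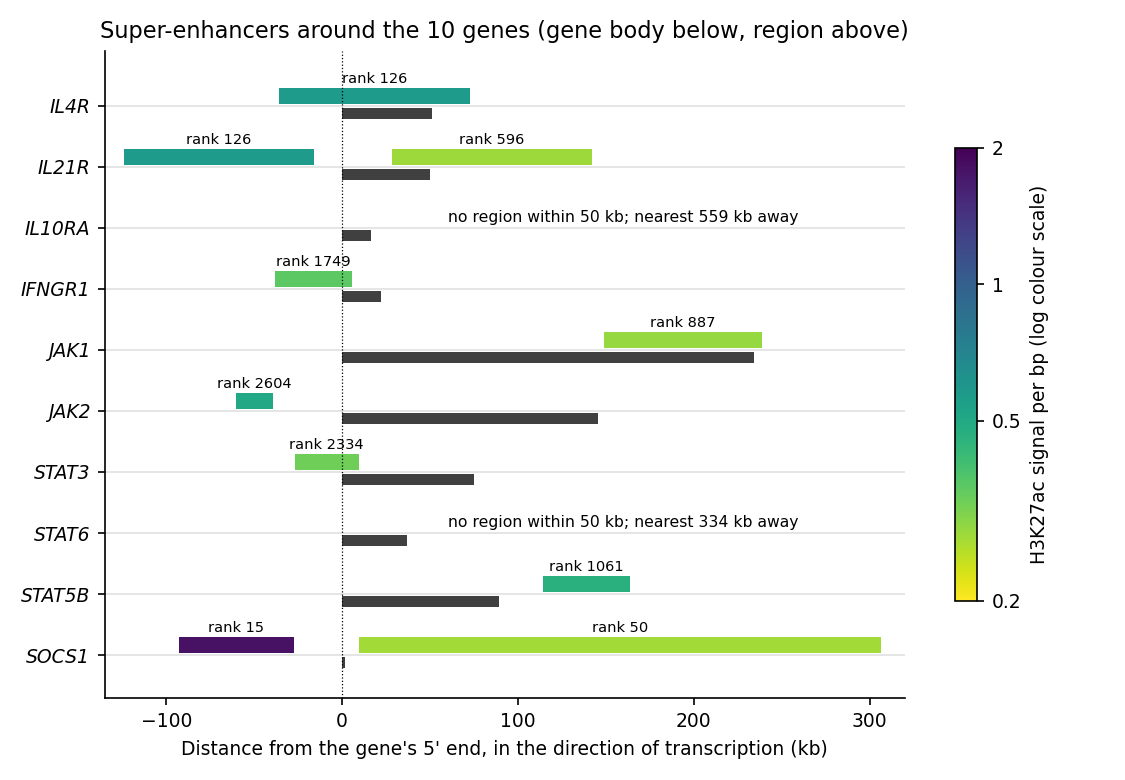
Super-enhancers (coloured bars, labelled by rank) and gene bodies (dark bars) of the 10 genes, by distance in kb from each gene's 5' end (x axis, positive in the direction of transcription). The colour gives H3K27ac signal per bp on a log scale, highest at 1.81 for the rank 15 region upstream of SOCS1, and regions cover the 5' ends of IL4R, IFNGR1 and STAT3.

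Among the receptors, IFNGR1 encodes the ligand-binding chain of the interferon-gamma receptor, which signals through JAK1 and JAK2. Its region (rank 1749, chr6:137213873-137257519, signal 15560, 1.47 times the cutoff) covered the 5' end and 25.4% of the gene body, and 87.2% of its 43.6 kb lay outside protein-coding genes, upstream of IFNGR1. It held 6 constituents at 0.357 per bp. Within 50 kb it had 1 other protein-coding gene, IL22RA2, which encodes a soluble receptor for IL-22. IL4R and IL21R, adjacent on chromosome 16, shared the region of rank 126 (chr16:27277982-27386429, signal 61902, 0.571 per bp, 34 constituents), which spanned all of IL4R and ended 15.7 kb upstream of the annotated IL21R 5' end. The region of rank 596 (signal 31961, 0.281 per bp) covered the 3' end of IL21R and ran on into GTF3C1, and 44.1 kb separated the 2 regions. A second annotation placed the IL21R start farther downstream: the RefSeq start lay 3.30 kb from the rank 596 region.

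By the study's settings, peaks close to a transcription start were left out before stitching. The table gives no positions of constituents, so where they lie relative to a covered 5' end is not known here. The hg38 sequence of 250 bases directly upstream of the GENCODE 5' end is shown for the 3 genes whose 5' end a region covered, 5' to 3' on the strand of the gene, with CpG dinucleotides in capitals because CpG content separates the common classes of promoter.
IL4R (chr16:27313418-27313667, plus strand): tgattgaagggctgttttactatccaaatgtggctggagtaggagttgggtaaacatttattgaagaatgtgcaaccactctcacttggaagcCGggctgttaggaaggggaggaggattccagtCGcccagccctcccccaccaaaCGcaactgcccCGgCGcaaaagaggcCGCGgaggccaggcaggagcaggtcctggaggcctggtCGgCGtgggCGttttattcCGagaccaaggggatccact
IFNGR1 (chr6:137219450-137219699, minus strand): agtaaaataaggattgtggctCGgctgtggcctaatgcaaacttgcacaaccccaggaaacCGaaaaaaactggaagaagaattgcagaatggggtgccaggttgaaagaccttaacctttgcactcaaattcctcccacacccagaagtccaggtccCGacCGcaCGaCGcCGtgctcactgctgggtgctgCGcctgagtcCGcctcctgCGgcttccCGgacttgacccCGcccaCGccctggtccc
STAT3 (chr17:42388541-42388790, minus strand): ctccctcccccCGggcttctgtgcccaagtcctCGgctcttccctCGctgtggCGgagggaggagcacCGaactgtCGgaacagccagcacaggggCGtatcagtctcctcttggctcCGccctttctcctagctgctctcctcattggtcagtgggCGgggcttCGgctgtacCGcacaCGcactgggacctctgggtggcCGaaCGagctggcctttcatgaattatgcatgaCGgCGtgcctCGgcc

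These windows held 11, 13 and 17 CpG for IL4R, IFNGR1 and STAT3, around the median of 14 over 19969 windows of the same length without N. For the genes without a region over the 5' end the range was wider, from 1 CpG upstream of STAT6 to 27 upstream of IL10RA and SOCS1. In these windows the 3 genes with a covered 5' end did not stand apart in CpG number. The windows follow GENCODE, and the RefSeq start lay 21.9 kb away for STAT6, 25.1 kb for IL21R, 12.2 kb for STAT5B and 3.58 kb for IL10RA. For those genes the window may miss a promoter, whereas for the 3 covered genes the RefSeq starts lay at most 0.306 kb away. The letters TTCNNNGAA, the palindrome that most STAT dimers recognise and which reads the same on both strands, occurred in none of the 10 members' windows and in 6.01% of the 19969. TTCNNNNGAA, with the spacer of 4 bases that STAT6 prefers, likewise occurred in 0 of 10 and in 4.84% of all.

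IL10RA encodes the ligand-binding chain of the IL-10 receptor and had no region within 50 kb. The nearest lay 559 kb away (rank 2123, chr11:117352895-117427283, signal 13159) over CEP164, with 21 constituents at 0.177 per bp. Its wider neighbourhood was nevertheless strong, with 5 regions within 1 Mb of the 5' end, 3 of them among the 262 strongest: rank 85 over SIK3, rank 139 over CXCR5, the chemokine receptor that guides B cells into follicles, together with BCL9L and UPK2, and rank 197, which overlapped no protein-coding gene. Over all genes the median was 3 regions within 1 Mb, and 23.6% of genes had at least 1 of the 262 strongest there.

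Both kinases had a region, but neither region covered an annotated 5' end. JAK1, which pairs with many receptor families, spans 235 kb on chromosome 1. The region of rank 887 (chr1:64829226-64918734, signal 25868, 2.44 times the cutoff) covered 36.5% of the gene from its 3' end, 85.5 kb in all, and reached into the neighbouring gene RAVER2. It ended 149 kb short of the GENCODE 5' end, and 47.8 kb from the nearest of 3 RefSeq starts of JAK1, so the part of the gene it covered was downstream under both annotations. With 29 constituents in 89.5 kb it had 0.289 per bp, and it was the only region within 1 Mb of the JAK1 5' end.

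JAK2, the kinase of the interferon-gamma and many hematopoietic cytokine receptors, had the weakest linked region. It stood at rank 2604 of 2615 (chr9:4923924-4945131) with a signal of 10669, 0.491% above the cutoff, and 119 regions of the table were no more than 5% above it. A slightly higher cutoff would leave JAK2 without a region. All of its 21.2 kb lay outside protein-coding genes, between RCL1 and JAK2, with its near edge 39.3 kb upstream of the 5' end and 4 constituents. It was short, and at 0.503 per bp it stood at rank 679 by density, 1.47 times the median. The cutoff applies to summed signal, so a region of this length could enter only at about this density or above. Its place above the median density therefore follows from its length and the cutoff. Within 1 Mb lay 2 other regions, rank 990 over PDCD1LG2, which encodes the PD-1 ligand PD-L2, and rank 1379 over RCL1.

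**Figure D3:**
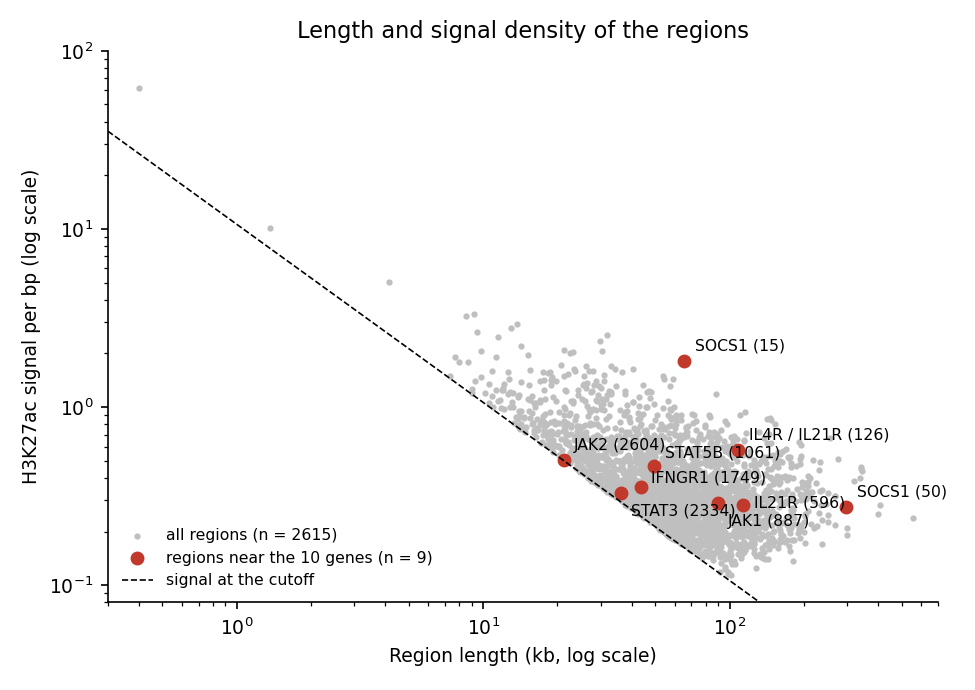
H3K27ac signal per bp against region length in kb (both axes log scale) for all 2615 super-enhancers (grey) and the 9 linked regions (red, rank in brackets). The dashed line marks the cutoff, on which the JAK2 region lies, while the rank 15 region near SOCS1 lies above the other regions of its length and the rank 50 region is long and of below-median density.

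The 3 STAT genes on the list differed. STAT3, which carries IL-21, IL-6 and IL-10 signals, had a region over its 5' end (rank 2334, chr17:42379128-42415404, signal 12000, 13.0% above the cutoff) with 6 constituents in 36.3 kb and 0.331 per bp. It covered 12.5% of the STAT3 body and extended upstream into CAVIN1, a gene of caveola formation. STAT5B, which acts downstream of IL-2 and growth hormone family cytokines, lies on the same chromosome. Its linked region (rank 1061, chr17:42125074-42174539, signal 22986, 2.17 times the cutoff, 0.465 per bp) lay 24.6 kb beyond its 3' end and 114 kb from its 5' end. That region covered RAB5C, KCNH4 and ENSG00000267261, including the 5' ends of RAB5C and ENSG00000267261, and had 10 protein-coding genes within 50 kb, so the distance rule tied STAT5B to it together with 9 other genes. STAT5A, which lies between STAT5B and STAT3, had no region within 50 kb, the nearest being 67.2 kb away.

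STAT6, the main transducer of IL-4, had no region within 50 kb, although its receptor IL4R had the third strongest of the 9 linked regions. The nearest lay 334 kb away (rank 839, chr12:57465878-57509804, signal 26826, 0.611 per bp) and overlapped GLI1, ARHGAP9 and MARS1. There were 4 regions within 1 Mb of STAT6, and none of them was among the 262 strongest. For the ligand, receptor and transducer of the same route, IL4 had no region (nearest 167 kb), IL4R had rank 126 and STAT6 had none, and for the IL-21 route the values were none for IL21, ranks 126 and 596 for IL21R and rank 2334 for STAT3.

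The rule that linked regions to genes did not use their sequence. TTCNNNGAA occurred 255 times in the 9 linked regions, or 30.9 per 100 kb against 29.1 over all regions, and TTCNNNNGAA at 26.4 against 24.9. The 9 regions were thus close to the table as a whole. By region, TTCNNNGAA ranged from 0.0809 per kb at STAT5B to 0.389 per kb at IFNGR1, with a median of 0.336 against 0.284. TTCNNNNGAA ranged from 0.0827 per kb at STAT3 to 0.424 per kb at JAK2. Its median was 0.194 against 0.242, below that of all regions although the pooled number was above. The stricter TTCCNGGAA, a subset of the same matches that was searched after the first counts were seen, occurred 30 times, in 8 of 9 linked regions and in 72.4% of all regions. Its number per 100 kb was 3.64 in the linked regions and 2.49 in all. The rank 50 region downstream of SOCS1 held 16 of these 30, at 5.39 per 100 kb, so 1 long region weighed heavily on the pooled number. The rank 15 region held 1 and the STAT5B region none.

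The STAT3 region held 4 of these matches in 36.3 kb, or 11.0 per 100 kb, the 13th highest of the 2615 regions. All 4 lay upstream of the STAT3 5' end, between 4.50 and 18.6 kb from it, 3 of them outside protein-coding genes and 1 in an intron of CAVIN1. The 2 nearest lay 236 bases apart. Since STAT3 is itself a factor that binds such letters, the stretch of 265 bases from the one to the other (hg38, chr17:42393021-42393285, plus strand) is shown with the matches in capitals, followed by the 2 other matches in that region and by single matches from other linked regions for comparison, each with 10 flanking bases on both sides.
STAT3 region, pair: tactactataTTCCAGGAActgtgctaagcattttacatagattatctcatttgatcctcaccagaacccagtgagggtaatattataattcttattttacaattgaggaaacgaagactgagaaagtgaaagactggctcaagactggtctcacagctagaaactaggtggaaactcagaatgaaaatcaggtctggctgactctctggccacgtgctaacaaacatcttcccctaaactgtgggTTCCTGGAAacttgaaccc
STAT3 region, chr17:42396180-42396208: atactgttagTTCCAGGAAgaggtgtctt
STAT3 region, chr17:42407077-42407105: ctgctttccaTTCCGGGAAgattttccaa
SOCS1 upstream region, chr16:11348670-11348698: cagggaaggcTTCCTGGAAgaggcagccc
SOCS1 downstream region, chr16:11233254-11233282: gcgttatcgtTTCCTGGAActccaactcg
JAK1 region, chr1:64891856-64891884: atagcagcaaTTCCAGGAAtaccccagaa
IFNGR1 region, chr6:137241725-137241753: ttatgttggcTTCCTGGAAgttctttttg
JAK2 region, chr9:4927007-4927035: ttttccttcaTTCCAGGAAttcaaattgt

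The match in the upstream SOCS1 region lay in an intron of RMI2, 92.5 kb from the SOCS1 5' end, and the downstream match nearest to SOCS1, shown above, lay 22.9 kb from it outside protein-coding genes. The JAK1 match lay in a JAK1 intron 176 kb from the 5' end, and those of IFNGR1 and JAK2 lay 22.3 and 57.4 kb upstream of their genes. These are matches of letters in the reference sequence. They do not show that a STAT protein was bound there, and binding was not measured in these samples.

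Other properties of the 9 regions spread on both sides of the table's medians. Length had a median of 65.5 kb against 60.7 kb, with 5 of 9 above. Signal per bp had a median of 0.357 against 0.343, again with 5 of 9 above. The number of constituents had a median of 11 against 16, with 4 of 9 above, and GC content one of 48.8% against 45.7%, with 6 of 9 above. Of the 10 gene-region links, 3 regions lay upstream of the gene, 2 downstream, 2 over the 3' end, 2 over the 5' end alone and 1 over the whole gene.

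The other genes of the pathway, listed by function, give the setting. Of 76 such genes, 34 (44.7%) had a region within 50 kb, between the 80.0% of the 10 genes and the 30.7% of all protein-coding genes. Receptor chains had a region in 14 of 35 cases. The strongest was rank 165 on chromosome 21 (signal 56954), which spanned IFNAR1 and lay within 50 kb of IL10RB and IFNGR2, so that the second chains of the IL-10 and interferon-gamma receptors had a strong region near them where IL10RA had none and IFNGR1 a weak one. IFNAR2 had rank 585 and IL7R rank 648. The cytokines themselves had a region in 1 of 9 cases, IL10 with rank 336, which lay 25.9 kb beyond its 3' end over DYRK3 and MAPKAPK2.

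With JAK3, the partner of the common gamma chain (rank 2161), and TYK2, the kinase of type I interferon and IL-10 receptors (rank 2004), all 4 Janus kinases had a region. The regions of JAK3 and TYK2 covered the 5' ends of their genes, whereas those of JAK1 and JAK2 did not. Per bp their signals were 0.503 for JAK2, 0.341 for TYK2, 0.330 for JAK3 and 0.289 for JAK1. The JAK2 region was the shortest of the 4, at 21.2 kb, and its value was close to the least that the cutoff allows at that length. STAT2, a transducer of type I interferon signals, had a region of rank 2526 (signal 11016), which lay 41.9 kb upstream over TIMELESS.

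Among the other inhibitors 8 of 16 had a region, against 30.7% of all protein-coding genes. The strongest were linked to SOCS7 (rank 393), PIAS1 (rank 439) and USP18 (rank 859, 17.3 kb upstream), all ranked below the 2 regions near SOCS1. SOCS4 had rank 2608, while SOCS2, SOCS3, SOCS5, SOCS6 and CISH had none, and for SOCS3 the nearest region lay 53.9 kb away, just outside the window. Of 10 genes known as STAT targets, 6 had a region, against the same 30.7%. The strongest were at PIM1, a survival kinase (rank 51, signal 81602, over the whole gene), and IRF1, an interferon-induced transcription factor (rank 273).

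**Figure D4:**
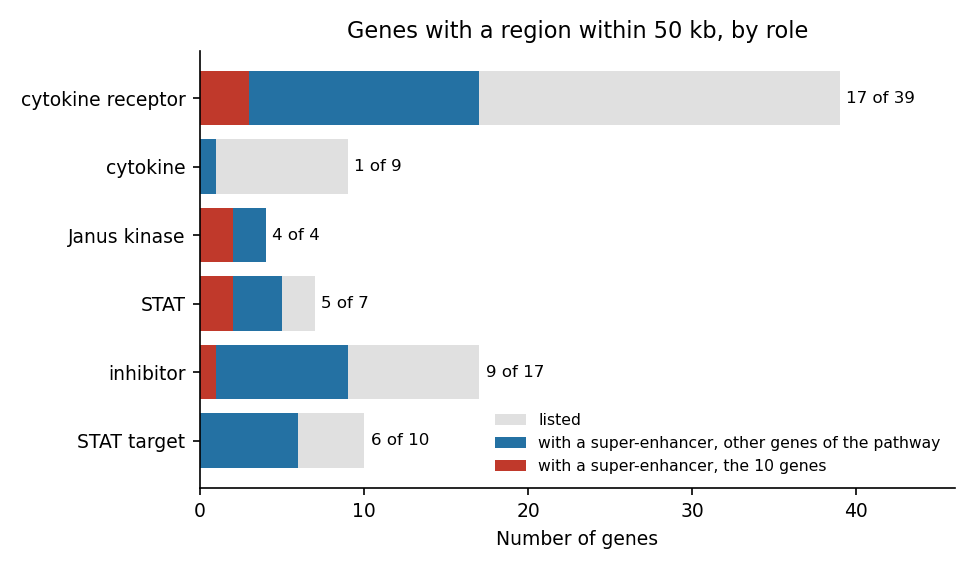
Number of genes (x axis) in each role of the pathway: all listed genes in grey, those with a super-enhancer within 50 kb in blue, and the part of these that belongs to the 10 genes in red. All 4 Janus kinases and 5 of 7 STAT genes had a region, against 17 of 39 receptors and 1 of 9 cytokines.

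The window set part of these counts. With gene bodies alone 5 of 10 genes had a region, with 25 kb on each side 7, and with 50 or 100 kb 8, while 3445, 5002, 6140 and 7935 of all 19970 genes had one with 0, 25, 50 and 100 kb. JAK2 entered at 40 kb. With a window of 50 kb around the 5' end in place of the gene body, 6 of 10 kept a region (background 25.9%) and JAK1 and STAT5B lost theirs. With regions of at least 2 times the cutoff 5 of 10 did (background 15.2%), and IFNGR1, STAT3 and JAK2 were lost. Between 50 and 200 kb the members' share stayed at 80.0% while that of all genes rose from 30.7% to 51.7%.

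**Figure D5:**
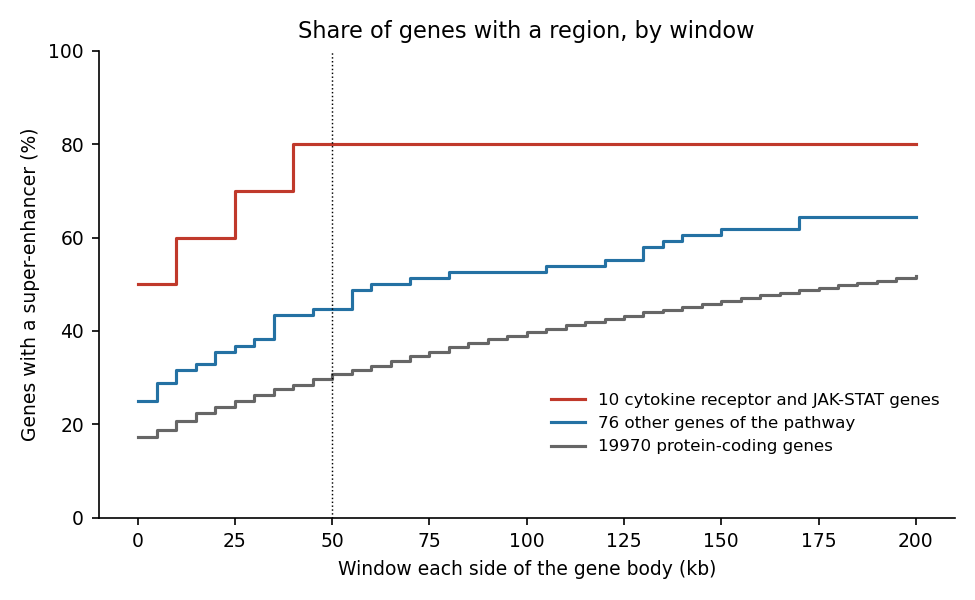
Share of genes with a super-enhancer (y axis, percent) against the window added on each side of the gene body (x axis, kb) for the 10 genes (red), 76 other genes of the pathway (blue) and 19970 protein-coding genes (grey), with 50 kb dotted. The red line rises from 5 of 10 genes without a window to 80.0% at 40 kb and is then flat, above the other lines throughout.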

How the data were processed

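CUT&RUN was performed on OCI-Ly7 clones. Per the methods, the authors ran nf-core cutandrun (hg38, SEACR peaks, MACS2 summits) against the IgG control of the same genotype, with depth set by promoter reads, and applied ROSE to the WT H3K27ac data without non-coding RNA TSS. The deposited signal is the ROSE signal per region in 1 pooled WT column, whose header gives 10617 as the cutoff and 12.5 kb as the stitching distance. Because ROSE sums over a region, longer regions reach a higher signal, so signal per bp (signal divided by end minus start) was also computed. The table gives no read counts or values per library, hence no interval, replicate error or test.

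Regions were linked to GENCODE version 44 gene bodies with 50 kb on each side and at least 1 bp of overlap, and counts were set beside the same share of all protein-coding genes. Motifs and GC content were read from hg38. RefSeq starts (GRCh38.p14) were used for distances only; 16 entries covered the 10 genes. Text names all 10 genes with their regions, the genes those regions overlap, all JAK and STAT genes, and the genes with the 3 highest-signal regions of each role, apart from some genes under this rule that are not reported here. Other genes are named as neighbours of a member or for comparison, and were chosen after their values were seen. The members and lists were chosen with earlier results of these data known. Python 3.11.15 with numpy 2.4.6, pandas 2.3.3 and matplotlib 3.10.9 was used, and the overlap and nearest-region procedures were tested on simulated intervals. Alternatives changed the window, its centre, the signal threshold, the overlap and the motif spacer.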

Additional observations from a re-analysis of the deposited data

How the results depend on the processing

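Alternative settings gave 25 values. Of these, 17 stayed within 1.5 times the main value with no change of side, 6 moved further and 2 changed side against all regions. Each setting of window, threshold or overlap was counted once for the 10 genes, once for the other pathway genes and once for all genes. With gene bodies alone, a region was found for 5 of the 10 genes, 19 of the 76 other pathway genes and 3445 of all protein-coding genes, and with regions of at least 2 times the cutoff for 5, 20 and 3033. These settings shrink the window or the set of regions by construction, and the share of the 10 genes (5 of 10 in both) stayed above that of all genes (17.3% and 15.2%). The median signal per bp of the linked regions, 0.357 with the 50 kb window, was 0.331 with gene bodies alone and then fell below the 0.343 of all regions, with 5 regions left. The median motif density was 0.336 per kb with a spacer of 3 bases, above the 0.284 of all regions, and 0.194 with 4, below their 0.242. No paired analysis was possible because the 2 libraries were pooled in 1 column without a replicate number. For the same reason leaving out each replicate was not run, and the signal minus control was not run because the table has no control column. Ranks within a few percent of each other have no error to tell them apart, and the JAK2 region, 0.491% above the cutoff, depends on where that cutoff was set.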

Other observations

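Around the other members, the neighbourhoods within 1 Mb of the 5' end held 8 regions for IL4R and IL21R, 7 for STAT3, 5 for STAT5B, 4 for IFNGR1, 4 for STAT6, 3 for JAK2 and 1 for JAK1. With SOCS1 and IL10RA counted, 8 of the 10 genes lay above the all-gene median of 3, where the third quartile was 5. These counts overlap: IL4R and IL21R had the same 8 regions, and the 5 of STAT5B were among the 7 of STAT3. One neighbour of STAT3 stood out after the values were seen: the region of rank 1198 over CCDC200 (chr17:43297352-43301518) was 4.17 kb long with 2 constituents and 5.01 per bp, the third highest density of the table. Beyond the 3 strongest of each role, CSF3R, the G-CSF receptor, was linked to rank 705, which lay 41.4 kb beyond its 3' end over LSM10 and OSCP1. A weaker region covered the CSF3R 5' end. PIM2, a survival kinase, was linked to rank 430 with 1.60 per bp, which lay 4.71 kb upstream over OTUD5. BCL6, the master regulator of the germinal center, was linked to rank 1468, which lay 13.2 kb upstream with 0.160 per bp over 113 kb. PRDM1, which drives plasma cell differentiation, had no region within 50 kb, and the nearest lay 54.1 kb away.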
